A study of Mus musculus with 12 samples.

Results

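Cholesterol and fatty acids are built from acetyl-CoA by 2 pathways whose genes share one set of regulators, and 33 genes of these pathways were followed here in mouse embryonic stem cells (ESCs) and in the epiblast-like cells (EpiLCs) made from them. The genes were taken by name from a list of pathway members, not by a threshold on measured values, and matched to the deposited gene identifiers through a table of gene symbols. The list and the tests were chosen with earlier results of these data known. Shares of members set beside those of all genes are therefore description only. All 33 were found among the 51467 genes of the table, and all 33 passed the expression filter that left 14731 genes for testing. They comprised 18 enzymes from acetoacetyl-CoA to cholesterol, 5 regulators, 2 sterol transport proteins and 8 enzymes of fatty acid synthesis, desaturation and elongation.

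ESCs were held in the naive state with LIF and the 2i inhibitors PD0325901 and CHIR99021 in medium with 15% fetal bovine serum. For EpiLCs, ESCs were plated, LIF and 2i were taken away after 24 h, and the cells were collected about 56 h after that. The labels do not state the serum content of the medium given after LIF and 2i removal. Both cell types came from the V6.5 line with a miR290-mCherry and miR302-GFP reporter per the methods of the study, so 1 cell line stands behind all groups. All cells received 500 µM 4-thiouridine (4sU) for 30 min. From each extract, RNA made during the pulse was biotinylated and captured (4sU libraries, nascent RNA), and unselected RNA was sequenced after ribosomal RNA depletion (total libraries). Each cell type and assay had 3 libraries, 12 in all. The study speaks of biological replicates, while the labels do not say whether the libraries came from separate cultures, so p-values measure the spread between these libraries. A read count in bulk RNA cannot tell fewer cells with a transcript from less of that transcript per cell.

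The transcription factors SREBP-1 and SREBP-2, encoded by Srebf1 and Srebf2, are made as membrane proteins of the endoplasmic reticulum. Scap escorts them to the Golgi, where the proteases encoded by Mbtps1 and Mbtps2 release the active factor, while Insig1 and Insig2 hold the complex back when sterols are plentiful. Active SREBP binds sterol regulatory elements in promoters, commonly beside sites for NF-Y (the CCAAT box) and Sp1 (the GC box), and raises transcription of the enzymes. Pluripotent cells divide fast and need both lipids for new membrane.

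Promoter windows are shown first for the 6 genes whose nascent RNA rose most and for Srebf2. RefSeq promoter sequences (GRCm38.p6, 250 bases before to 50 bases after the start) were at hand for 25 of the 33 genes, as 33 promoters, since some genes have several. The core of the sterol regulatory element was searched on both strands as TCACNCCA, the CCAAT box as CCAAT and the GC box as GGGCGG; the first ends and the second begins with CCA, so their matches may overlap. TCACNCCA was present in 3 of the 33 promoters, those of Hmgcs1, Msmo1 and Srebf2 (9.09%), against 4.36% of all 32851 promoters of the same length. CCAAT was present in 22 of the 33 (66.7%), against 37.4% of all promoters, and GGGCGG in 26 (78.8%), against 35.7%. All promoters were counted whether or not their gene passed the expression filter, which all 33 genes passed. No share was taken over promoters of genes past the filter alone. A match describes letters only. In the windows below the motif is in capitals within 10 bases on each side, read 5′ to 3′ on the named strand, and the 3 sterol element windows come first.
Hmgcs1 promoter, chr13:119690204-119690231, plus strand: cgtcaccgtcTCACCCCActtcccaggt
Msmo1 promoter, chr8:64733738-64733765, minus strand: ctcactattcTCACTCCAtccgcgcagc
Srebf2 promoter, chr15:82147097-82147124, plus strand: tgacgcaccaTCACCCCAtgagccgctt
Cyp51 promoter, chr5:4104712-4104736, minus strand: ctgtccgccaCCAATctggtcctga
Sc5d promoter, chr9:42264310-42264334, plus strand: aggcagccggCCAATcagcagccgg
Lss promoter, chr10:76531533-76531557, minus strand: gcgagctcggCCAATcagagcatca
Hsd17b7 promoter, chr1:169969264-169969288, plus strand: gttaggcccgCCAATcgcgactcgg
The sterol element core began 137 bases before the RefSeq start of Hmgcs1, 177 before that of Msmo1 and 162 before that of Srebf2. The CCAAT boxes printed, 1 a gene, had their outer base 29 bases before the start of Cyp51, 24 before that of Sc5d, 62 before that of Lss and 73 before that of Hsd17b7. Hsd17b7 held others 12 and 165 bases before its start, and Hmgcs1 had CCAAT boxes 45, 176 and 237 bases before its own.

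Levels are given as TMM-adjusted CPM, counts relative to library size (CPM) scaled by edgeR's TMM factors, which correct for differences in composition between libraries. Changes are log2 differences, EpiLC minus ESC, with their standard error (SE), from a limma-voom model of all 12 libraries, and the adjusted p is that of Benjamini and Hochberg over the 14731 genes. The stability change is the total change minus the nascent change, and relative stability is log2 of total over nascent RNA, which stands for the half-life of an mRNA only where its level is steady. A gene is said to rise or fall at an adjusted p under 0.05, and to be called when the log2 change also exceeded 1 in size. The 3 comparisons share libraries, so they are not independent of each other.

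Libraries held 3097693 to 5385644 reads (4sU) and 9300845 to 21975684 reads (total), and the members had 6 reads or more in each library. Of the naive markers 7 of 8 were called lower in total RNA with a summed level of 3424 to 3696 CPM in ESCs and 319.8 to 331.5 CPM in EpiLCs. All 5 formative markers were called higher, from 260.5 to 304.6 CPM to 1566 to 1892 CPM. Markers of other cells moved too: those of fibroblasts summed to 3.88 to 4.73 CPM in ESC and 14.6 to 18.9 CPM in EpiLC total RNA (2 of 7 called higher; Dcn and Postn had no read in any ESC library), and those of primitive endoderm to 5.04 to 11.9 and 18.2 to 21.3 CPM (2 of 6 called higher, 1 lower). Mesendoderm markers summed to 17.1 to 28.1 and 20.3 to 31.2 CPM (2 of 5 called higher). In nascent RNA the mesendoderm markers summed to 21.4 to 28.45 CPM in ESCs and 45.35 to 96.8 CPM in EpiLCs, and the 3 tested rose. Primitive endoderm markers summed there to 13.4 to 16 and 29.1 to 40.1 CPM, and fibroblast markers to 2.045 to 2.71 and 4.48 to 5.34 CPM. Only 3 fibroblast, 4 primitive endoderm and 3 mesendoderm markers were tested. The part of these markers in the changes of the lipid genes was not tested. The ESC libraries numbered 3 stood apart from the other ESC libraries on the third principal component (2.33% of the variance) in both assays, and results without them follow at the end.

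Nascent RNA of 17 of the 33 genes rose with the transition, and that of 1 fell. Of the 33, 6 were called higher (18.2%, against 11.9% of all genes tested) and 1 was called lower (3.03%, against 13.5%). At the adjusted p alone 17 rose (51.5%, against 23.7%) and 1 fell (3.03%, against 28.8%). The median nascent change of the members was 0.38, with 26 above 0 and 7 below, and that of all genes tested was -0.09. The 6 called higher were Sc5d, Cyp51, Hmgcs1, Hsd17b7, Lss and Msmo1, which are all sterol enzymes, and Ebp was the 1 called lower. The number called higher was 4 without ESC 4sU library 1, where Lss (0.99) and Msmo1 (0.87) fell short of the fold threshold. It was 10 without ESC 4sU library 2 or ESC total library 1, and 11 without ESC 4sU library 3 or EpiLC 4sU library 3. Without EpiLC 4sU library 2 none was called lower.

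Total RNA moved less and in both directions. None of the 33 was called higher by limma-voom (0%, against 16.3% of all genes tested), where 13 were higher at an unadjusted p under 0.05, and edgeR's quasi-likelihood test and DESeq2 also called 0. The number called lower was 2 (6.06%, against 11.2%), Ebp and Scd1. Tm7sf2 was called lower as well with median-of-ratios scaling, no filter, sample quality weights or DESeq2. Without ESC total library 3, 1 member was called higher (Hsd17b7) and 1 lower (Ebp). At the adjusted p alone 13 rose (39.4%, against 31.4%) and 10 fell (30.3%, against 32.1%), shares near those of all genes. The members' median change in total RNA was 0.14, beside 0.02 over all genes. Of the 17 genes that rose in nascent RNA, 11 rose in total RNA as well, 5 did not pass the test there, and Scd2 fell. Of the 10 that fell in total RNA, 8 had no nascent change past the test.

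**Figure D1:**
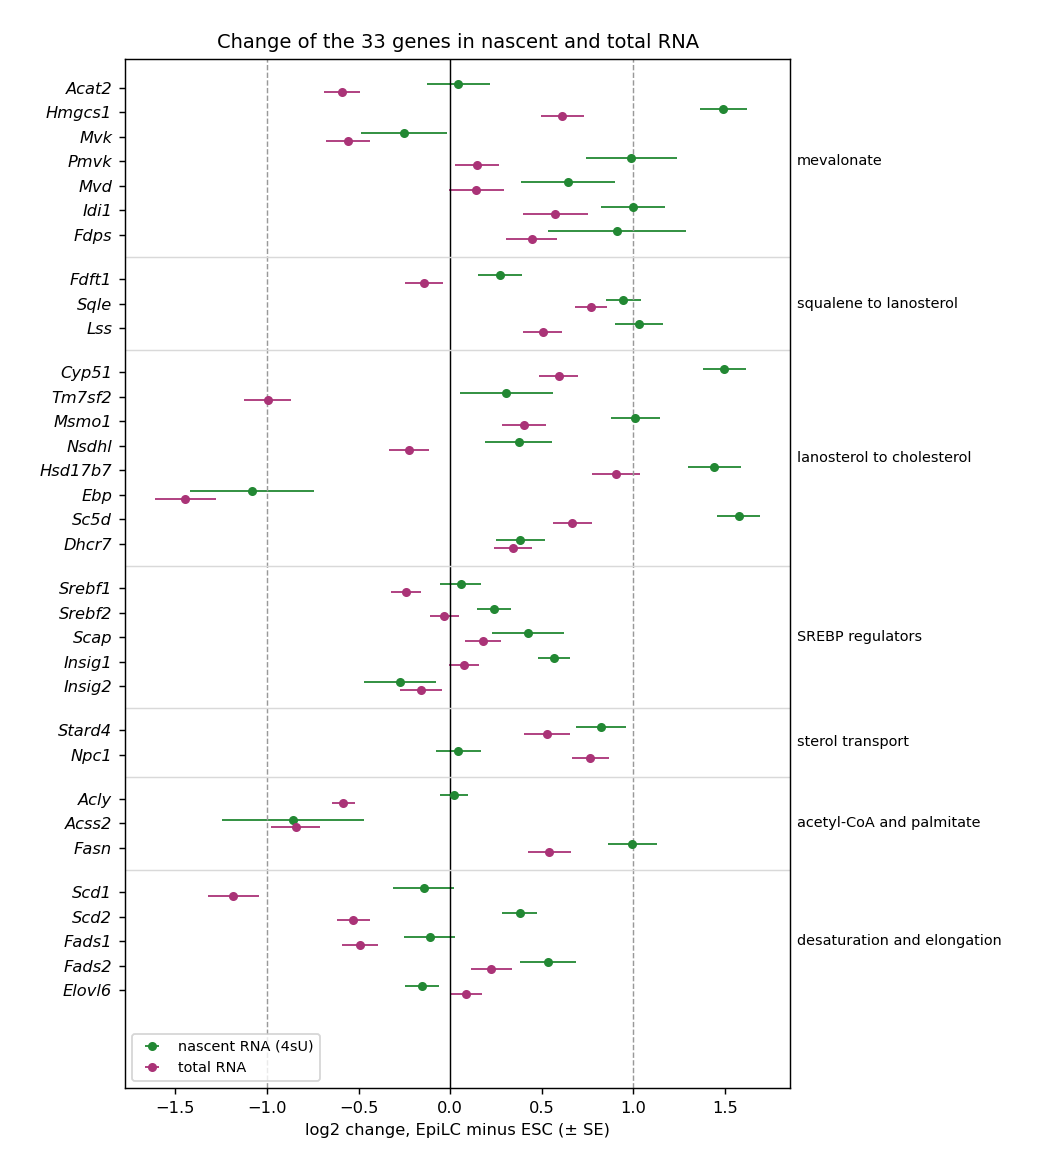
The plot shows the log2 change (EpiLC minus ESC, horizontal axis) of each of the 33 genes, grouped by role, in nascent (green) and total RNA (purple), with bars for the SE of the fit on 12 libraries and dashed lines at a log2 change of 1 in either direction. The nascent point lies to the right of the total point for 29 genes, and the 6 nascent points past the right-hand line are Hmgcs1, Lss, Cyp51, Msmo1, Hsd17b7 and Sc5d.

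The 7 genes of the mevalonate segment, which turns acetyl-CoA into farnesyl diphosphate, had a median nascent change of 0.91 and a median change of 0.15 in total RNA. Hmgcs1 (chr13:119690462-119708086, plus strand, mm10 as are all gene positions below) encodes the HMG-CoA synthase of the segment. It was the most abundant of the 7 genes per kb of exon in total RNA, with 142 CPM per kb in ESCs and 220.1 in EpiLCs. In the 4sU libraries it was at 256, 312 and 290.1 CPM in ESCs and 925, 766 and 729 CPM in EpiLCs. In the total libraries it was at 487, 456 and 435 CPM in ESCs and 853, 598 and 684 CPM in EpiLCs. All EpiLC libraries lay above all ESC libraries in both assays, by more in nascent RNA. Hmgcs1 rose 2.81-fold in nascent RNA (log2 1.49 ± 0.13, limma-voom adjusted p = 4.29e-07) and 1.53-fold in total RNA (log2 0.61 ± 0.12, limma-voom adjusted p = 0.00038). Its promoter is the first of the 3 above with the sterol element core. Of the 50-base windows in its transcripts 11.6% also occur in other genes.

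Among the other mevalonate genes, nascent RNA rose for Idi1 (0.998), Pmvk (0.99) and Mvd (0.64), an isomerase, a kinase and a decarboxylase of the segment. Idi1 and Pmvk stood just short of a log2 change of 1, which Idi1 passed in 8 and Pmvk in 5 of the 12 fits without 1 library (up to 1.17 and 1.18, both without EpiLC 4sU library 3). Mvd missed the test without ESC 4sU library 1 (0.39) or 2 (0.65), EpiLC 4sU library 1 (0.63) or 2 (0.64), or EpiLC total library 3 (0.65). The farnesyl diphosphate synthase gene Fdps had a nascent change of 0.91 that missed the test (limma-voom adjusted p = 0.0546), and rose in total RNA (0.45), though not past the test without ESC total library 2 (0.28) or EpiLC total library 1 (0.36). Its nascent change passed with DESeq2, median-of-ratios scaling, TMM within each assay and the 6 4sU libraries alone. It also passed with the replicate number as a block term and without both ESC libraries numbered 3. The total rise of Fdps missed the test with DESeq2 and without a filter. Acat2, the thiolase that joins the first acetyl units, and the mevalonate kinase gene Mvk fell in total RNA (log2 -0.59 and -0.56), while their nascent values were 0.05 and -0.25, short of the test. Of the 50-base windows in the transcripts of Acat2, Fdps and Idi1, 39.1%, 26.2% and 25.3% are shared in this way, so the values of these genes are uncertain, by an amount that was not tested. Matches on either strand counted, and genes that overlap at the same place were not set apart.

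Squalene synthase (Fdft1), squalene epoxidase (Sqle) and lanosterol synthase (Lss) carry farnesyl diphosphate to the first sterol. Sqle (chr15:59315081-59331192, plus strand), a rate-limiting step, was the most abundant of the 3 per kb in total RNA, 64.2 CPM per kb in ESCs and 109.8 in EpiLCs. Its nascent RNA was at 190.1, 241 and 222 CPM in ESCs and 446, 426 and 383 CPM in EpiLCs. In total RNA the libraries held 184, 179 and 168 CPM in ESCs and 317, 283 and 308 CPM in EpiLCs. The cell types did not overlap in either assay, and the 2 rises were close in size. Sqle rose by 0.95 ± 0.09 in nascent RNA (limma-voom adjusted p = 1.59e-06) and by 0.77 ± 0.09 in total RNA (limma-voom adjusted p = 2.67e-06), both on the log2 scale, and passed a nascent log2 change of 1 without ESC 4sU library 2 (1.07) or 3 (1.02), without ESC total library 1 (1.01) and without EpiLC 4sU library 3 (1.08).

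Lss (chr10:76531607-76555479, plus strand) was at 50.9, 51.4 and 55.6 CPM in ESCs and 119, 104 and 99.4 CPM in EpiLCs in nascent RNA and at 123, 102 and 97.1 CPM in ESCs and 174, 137 and 148 CPM in EpiLCs in total RNA. Here too no EpiLC library overlapped an ESC library. The nascent rise was 2.04-fold (log2 1.03 ± 0.13, limma-voom adjusted p = 1.73e-05), and the rise in total RNA was 1.42-fold (log2 0.51 ± 0.11, limma-voom adjusted p = 0.000697). Lss stood just inside the nascent threshold and fell to a log2 change of 0.99 without ESC 4sU library 1. Fdft1 passed the test in neither assay in the main fit (0.27 in nascent and -0.14 in total RNA), and 26.5% of its windows are shared with other genes. It rose in nascent RNA with DESeq2, median-of-ratios scaling and TMM within each assay. The same held for the 6 4sU libraries alone and with the replicate number as a block term. With sample quality weights Fdft1 fell in total RNA.

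The 8 enzymes that convert lanosterol to cholesterol held the largest changes of the pathway, in both directions. Sc5d (chr9:42251595-42264256, minus strand), a sterol desaturase, had the largest nascent rise of all 33. Nascent RNA of the gene was at 55, 69.2 and 49.6 CPM in ESCs and 186, 169.5 and 165 CPM in EpiLCs. Its total RNA was at 52.5, 49.4 and 43.9 CPM in ESCs and 83.1, 72.6 and 77.2 CPM in EpiLCs. Every EpiLC library exceeded every ESC library, and the nascent gap was the wider one. The rise was 2.98-fold in nascent RNA (log2 1.58 ± 0.12, limma-voom adjusted p = 1.07e-07) and 1.59-fold in total RNA (log2 0.67 ± 0.11, limma-voom adjusted p = 6.22e-05).

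Cyp51 (chr5:4081145-4104746, minus strand), the demethylase that acts on lanosterol, had nascent RNA at 161, 179.8 and 148 CPM in ESCs and 519, 433 and 432 CPM in EpiLCs. Total RNA was at 221, 200.1 and 186 CPM in ESCs and 349.9, 270.0 and 303 CPM in EpiLCs. The pattern was that of Sc5d, with no overlap and a wider gap in nascent RNA. Cyp51 rose 2.82-fold in nascent RNA (log2 1.4975 ± 0.12, limma-voom adjusted p = 1.53e-07) and 1.51-fold in total RNA (log2 0.59 ± 0.11, limma-voom adjusted p = 0.000201).

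Hsd17b7 (chr1:169949535-169969241, minus strand), a reductase of the demethylation steps, was at 33.3, 39.5 and 33.6 CPM in ESCs and 109, 94.3 and 88.7 CPM in EpiLCs in nascent RNA. In total RNA it was at 17.3, 20.4 and 25.2 CPM in ESCs and 41.4, 34.5 and 39.1 CPM in EpiLCs. It had the largest rise of the 33 in total RNA, 1.87-fold (log2 0.91 ± 0.13, limma-voom adjusted p = 2.32e-05), beside 2.72-fold in nascent RNA (log2 1.44 ± 0.14, limma-voom adjusted p = 1.55e-06). Without ESC total library 3, the highest of the ESC total values, the total change was 1.01 and was called.

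Msmo1 (chr8:64718139-64733792, minus strand), the methylsterol monooxygenase of the same steps, was the most abundant of the 8 per kb in total RNA (123 CPM per kb in ESCs and 161 in EpiLCs). In the 4sU libraries it was at 132, 161 and 177 CPM in ESCs and 349.9, 299.5 and 291 CPM in EpiLCs. Total RNA of the gene was at 227, 233 and 294 CPM in ESCs and 361, 289 and 339 CPM in EpiLCs, where the cell types overlapped through ESC library 3. Msmo1 rose 2.02-fold in nascent RNA (log2 1.01 ± 0.13, limma-voom adjusted p = 2.39e-05) and 1.32-fold in total RNA (log2 0.40 ± 0.12, limma-voom adjusted p = 0.00915). The nascent change was 0.87 without ESC 4sU library 1 and 0.996 with sample quality weights, and the total change missed the test without ESC total library 1 (0.32, limma-voom adjusted p = 0.0514).

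Ebp (chrX:8185329-8193512, minus strand), the sterol isomerase, fell in both assays. Its nascent RNA was at 15.1, 14.8 and 15.7 CPM in ESCs and 10.1, 4.45 and 8.6 CPM in EpiLCs. In the total libraries it was at 56.3, 56.1 and 38.9 CPM in ESCs and 21.3, 16.3 and 18.4 CPM in EpiLCs. All EpiLC values were below all ESC values, and EpiLC 4sU library 2 was the lowest. In total RNA Ebp was 2.72-fold lower (log2 -1.45 ± 0.17, limma-voom adjusted p = 2.69e-06), the largest fall of the 33. In nascent RNA it was 2.12-fold lower (log2 -1.08 ± 0.34, limma-voom adjusted p = 0.0149), but without EpiLC 4sU library 2 the change was -0.67 and missed the test (limma-voom adjusted p = 0.119), and edgeR (-0.998) and DESeq2 (-0.94) gave it just under the size needed for a call.

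Tm7sf2 (chr19:6062821-6067855, minus strand), a sterol reductase, fell in total RNA without a nascent change past the test. Nascent RNA was at 5.93, 10.2 and 9.22 CPM in ESCs and 11.6, 11.2 and 7.71 CPM in EpiLCs, with overlap. Total RNA was at 32.2, 33.1 and 34.5 CPM in ESCs and 19.8, 15.9 and 14.8 CPM in EpiLCs, with no overlap. The total change was -0.995 (SE 0.13, limma-voom adjusted p = 8.55e-06), just short of the size needed for a call, which it passed in 8 of the 12 fits without 1 library: without ESC 4sU libraries 1, 2 or 3 (-1.0004, -1.02 and -1.02), ESC total libraries 1 or 2 (-1.04 and -1.0004), EpiLC 4sU libraries 1 or 3 (-1.01 in both) or EpiLC total library 1 (-1.10). The total change was also called with median-of-ratios scaling (-1.02), no filter (-1.06), sample quality weights (-1.01) and DESeq2 (-1.01). The nascent change was 0.31 ± 0.26 (limma-voom adjusted p = 0.331), and 9.87% of the windows of Tm7sf2 are shared with other genes. Of the remaining genes of the segment, Dhcr7, which makes cholesterol in the last step of its branch, rose in both assays (0.38 in nascent and 0.34 in total RNA). It missed the test in nascent RNA without ESC 4sU library 1 (0.31) or 2 (0.40) or EpiLC 4sU library 2 (0.36). In total RNA it missed the test without EpiLC total library 1 (0.25). Nsdhl passed the test in neither assay in the main fit (0.37 in nascent and -0.23 in total RNA). Nsdhl rose in nascent RNA with DESeq2 and with the replicate number as a block term. In total RNA Nsdhl fell with sample quality weights and without both ESC libraries numbered 3.

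Summed over the 18 sterol enzymes, nascent RNA went from 1223 ± 108 to 2694 ± 286 CPM and total RNA from 1862 ± 63.9 to 2430 ± 308 CPM (SD, n = 3 libraries). The nascent sums were 1104, 1315 and 1250 CPM in ESCs and 3016, 2596 and 2470 CPM in EpiLCs. The total sums were 1934, 1812 and 1840 CPM in ESCs and 2757, 2145 and 2388 CPM in EpiLCs. The cell types did not overlap in either assay.

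**Figure D2:**
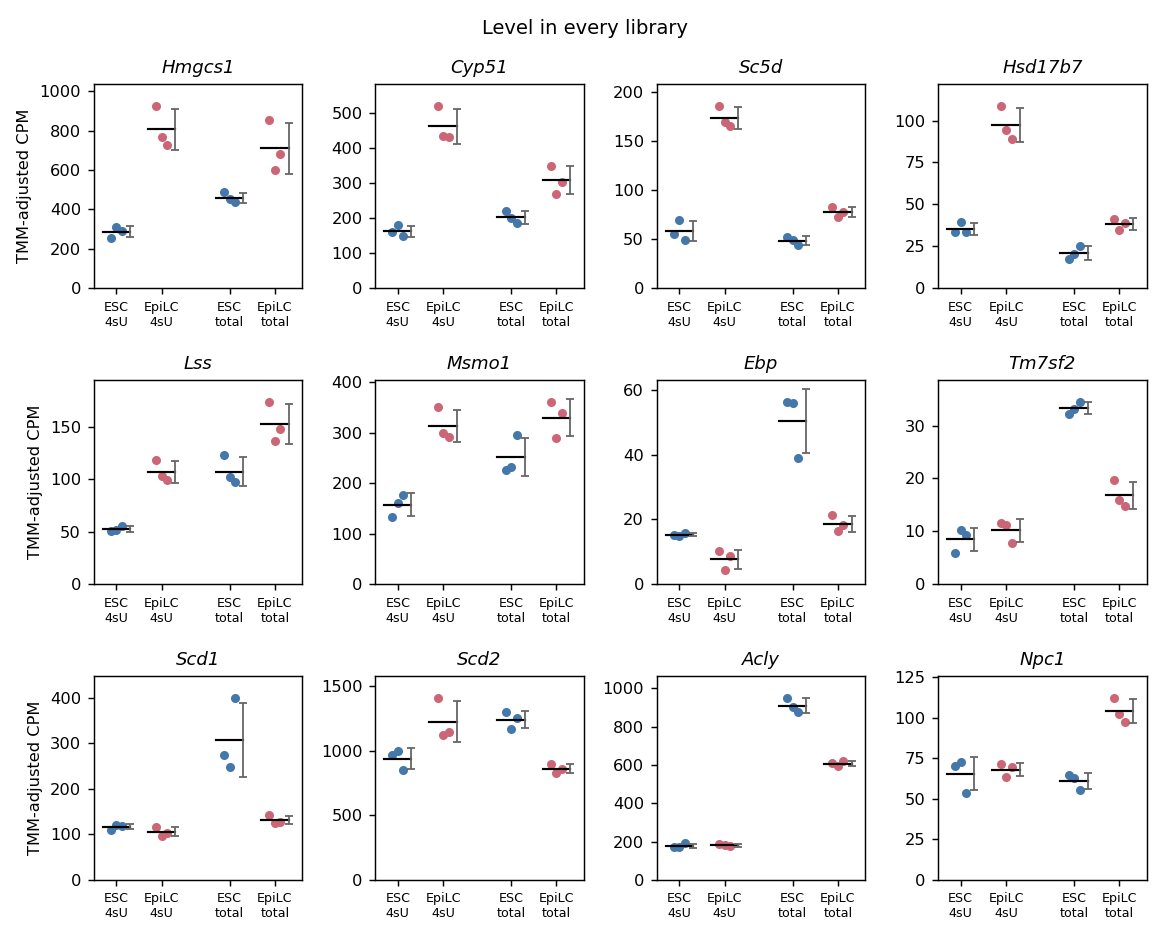
Each panel plots the TMM-adjusted CPM (vertical axis, from 0) of 1 gene in the 12 libraries, with a dot per library (blue ESC, red EpiLC), a black line for the mean and a bar for the SD of 3 libraries. In the top row and for Lss and Msmo1 the EpiLC 4sU dots lie above the ESC 4sU dots, Ebp is lower in both assays, and Tm7sf2, Scd1, Scd2 and Acly are lower in EpiLC total RNA alone.

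Of the 5 regulators none was called; Srebf1 fell in total RNA, and Srebf2 and Insig1 rose in nascent RNA. Srebf2 (chr15:82147266-82205376, plus strand), the SREBP that favours sterol genes, was at 139, 127 and 130.1 CPM in ESCs and 166, 153 and 149.5 CPM in EpiLCs in nascent RNA and at 257, 251 and 285 CPM in ESCs and 281, 241 and 252 CPM in EpiLCs in total RNA. The nascent values did not overlap and the total values did. Its nascent change was 0.24 ± 0.09 (limma-voom adjusted p = 0.0384), which missed the test without ESC 4sU library 2 (adjusted p = 0.0509) or EpiLC 4sU library 2 (0.0598) and without an expression filter (0.0639). Its total change of -0.03 ± 0.08 (limma-voom adjusted p = 0.746) changed sign with the scaling to library totals (0.06) and without ESC total library 3 (0.02) or EpiLC total library 2 (0.02).

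Srebf1 (chr11:60199089-60220604, minus strand), whose products favour fatty acid genes, was at 47.4, 50.5 and 55.3 CPM in ESCs and 53.2, 53.8 and 51 CPM in EpiLCs in nascent RNA and at 140.2, 130.5 and 117 CPM in ESCs and 102, 113 and 114 CPM in EpiLCs in total RNA. Only the total values were apart. Srebf1 fell by 0.24 on the log2 scale in total RNA (SE 0.08, limma-voom adjusted p = 0.0182), and the change missed the test without ESC total library 1 (-0.20) or 2 (-0.24) or EpiLC total library 1 (-0.19) and with scaling to library totals (-0.15). In nascent RNA it was 0.06 ± 0.11 (limma-voom adjusted p = 0.684), and -0.01 without ESC 4sU library 1.

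Scap (chr9:110333356-110384950, plus strand), the escort, was at 10.6, 13.1 and 15.5 CPM in ESCs and 18.6, 15.3 and 18.1 CPM in EpiLCs in nascent RNA and at 47.7, 39.2 and 48.1 CPM in ESCs and 47.8, 51.4 and 52.4 CPM in EpiLCs in total RNA. Both sets overlapped. Neither the nascent change (0.43 ± 0.20, limma-voom adjusted p = 0.0817) nor the total change (0.18 ± 0.10, limma-voom adjusted p = 0.128) passed the test; the nascent one did without ESC 4sU library 3 (0.59, limma-voom adjusted p = 0.037) or ESC total library 1 (0.49, limma-voom adjusted p = 0.0468), and by edgeR (0.42, adjusted p = 0.0387) and DESeq2 (0.47, adjusted p = 0.0264). It also passed with the replicate number as a block term (0.42, limma-voom adjusted p = 0.0475), TMM within each assay (0.49, limma-voom adjusted p = 0.0478), the 6 4sU libraries alone (0.49, limma-voom adjusted p = 0.044) and without both ESC libraries numbered 3 (0.50, limma-voom adjusted p = 0.0407). The total change passed with library totals as the scaling (0.27, limma-voom adjusted p = 0.0279), with quality weights (0.23, limma-voom adjusted p = 0.0115) and without both ESC libraries numbered 3 (0.22, limma-voom adjusted p = 0.0301). Of its windows 9.96% are shared with other genes.

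Insig1 (chr5:28071363-28078662, plus strand), which is itself a target of SREBP, was by far the most abundant of the 5 regulators per kb in nascent RNA (83 CPM per kb in ESCs and 123 in EpiLCs). Nascent RNA of the gene was at 214, 242 and 216 CPM in ESCs and 367, 321 and 309 CPM in EpiLCs. Its total RNA was at 184, 173 and 179 CPM in ESCs and 202, 174 and 189 CPM in EpiLCs. The nascent values were apart and the total values overlapped. Insig1 rose 1.48-fold in nascent RNA (log2 0.57 ± 0.09, limma-voom adjusted p = 8.75e-05), and its total change was 0.08 ± 0.08 (limma-voom adjusted p = 0.443). Insig2 (chr1:121304353-121332589, minus strand) was at 18.2, 14.7 and 13 CPM in ESCs and 14.4, 12.9 and 10.4 CPM in EpiLCs in nascent RNA and at 23.6, 24.6 and 19.8 CPM in ESCs and 19.2, 21.7 and 20.4 CPM in EpiLCs in total RNA. Its values overlapped in both assays, with changes of -0.28 ± 0.20 and -0.16 ± 0.11 (limma-voom adjusted p = 0.256 and 0.244). The total change of Insig2 passed the test with quality weights (-0.20, limma-voom adjusted p = 0.0292) and without both ESC libraries numbered 3 (-0.24, limma-voom adjusted p = 0.0285).

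Both sterol transport genes rose in total RNA. Npc1, which exports cholesterol from lysosomes, was at 70.5, 72.6 and 53.7 CPM in ESCs and 71.4, 63.6 and 69.4 CPM in EpiLCs in nascent RNA. In total RNA it was at 64.7, 63 and 55.4 CPM in ESCs and 112, 103 and 97.5 CPM in EpiLCs. The nascent values overlapped, and every EpiLC total value lay above every ESC one. Npc1 rose 1.7-fold in total RNA (log2 0.77 ± 0.10, limma-voom adjusted p = 1.07e-05) while the nascent change was 0.05 ± 0.12 (limma-voom adjusted p = 0.782), which was -0.02 without ESC 4sU library 3. Stard4, a cytosolic sterol carrier, rose in both assays (log2 0.82 in nascent and 0.53 in total RNA).

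Of the 8 enzymes of fatty acid synthesis, 1 rose and 5 fell in total RNA, and 3 rose and none fell in nascent RNA. Of all genes tested, 31.4% rose and 32.1% fell in total RNA, and 23.7% rose and 28.8% fell in nascent RNA. Acly (chr11:100476353-100528000, minus strand), which makes cytosolic acetyl-CoA from citrate and feeds both pathways, was the most abundant per kb of the 3 genes for acetyl-CoA and palmitate in total RNA, 197 CPM per kb in ESCs and 132 in EpiLCs. In the 4sU libraries it was at 170.3, 173 and 190.3 CPM in ESCs and 187, 179 and 174 CPM in EpiLCs. Total RNA of the gene was at 950.5, 899.7 and 875 CPM in ESCs and 608, 593 and 619 CPM in EpiLCs. The nascent values overlapped, whereas the total values were apart and tight. Acly was 1.5-fold lower in total RNA (log2 -0.58 ± 0.06, limma-voom adjusted p = 1.26e-06), and its nascent RNA differed by 0.02 ± 0.08 (limma-voom adjusted p = 0.831), or by -0.03 without ESC 4sU library 1. Fasn, the fatty acid synthase, rose by 0.99 in nascent RNA and by 0.54 in total RNA on the log2 scale, and its nascent change passed 1 in 8 of the 12 fits without 1 library (up to 1.21 without ESC 4sU library 3). Acss2, which makes acetyl-CoA from acetate, fell in total RNA (-0.84), and its nascent value of -0.86 missed the test (limma-voom adjusted p = 0.0767) on the lowest read counts of the 33. With sample quality weights Acss2 fell in nascent RNA as well.

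Of the 4 desaturases, Scd1, Scd2 and Fads1 fell in total RNA. Scd1 (chr19:44394451-44407709, minus strand), a stearoyl-CoA desaturase that makes monounsaturated fatty acids, had nascent RNA at 110.4, 121 and 119 CPM in ESCs and 117, 97.3 and 104 CPM in EpiLCs. In the total libraries it was at 274, 247 and 401 CPM in ESCs and 142, 125 and 127 CPM in EpiLCs. Nascent values overlapped, and ESC total library 3 was the highest of the total values. Scd1 was 2.27-fold lower in total RNA (log2 -1.18 ± 0.14, limma-voom adjusted p = 3.57e-06), and the change was -0.99 without ESC total library 3. The nascent change was -0.14 ± 0.17 (limma-voom adjusted p = 0.484).

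Scd2 (chr19:44293676-44306864, plus strand), a paralog of Scd1 on the same chromosome, was the most abundant of the 33 per kb in total RNA of ESCs (227 CPM per kb). Its nascent RNA was at 965, 998 and 846 CPM in ESCs and 1409, 1117 and 1145 CPM in EpiLCs. Its total RNA was at 1301, 1165 and 1254 CPM in ESCs and 896, 828 and 855 CPM in EpiLCs. The 2 assays went opposite ways with no overlap in either. Scd2 rose 1.3-fold in nascent RNA (log2 0.38 ± 0.09, limma-voom adjusted p = 0.00358) and was 1.44-fold lower in total RNA (log2 -0.53 ± 0.09, limma-voom adjusted p = 0.000106). It was the only member that passed the test in opposite directions. Of the 50-base windows in the transcripts of Scd1 and Scd2, 4.56% and 3.97% are shared with another gene, each being a partner of the other.

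Of the remaining genes of this group, Fads1 fell in total RNA (-0.49) and Fads2 rose in nascent RNA (0.53), both desaturases of polyunsaturated fatty acids. The elongase gene Elovl6 passed the test in neither assay (-0.15 and 0.09). Summed over the 8 fatty acid enzymes, nascent RNA went from 1936 ± 57.3 to 2460 ± 222 CPM and total RNA from 3860 ± 253 to 3362 ± 87.8 CPM (SD, n = 3 libraries). Their median change was -0.04 in nascent and -0.51 in total RNA, beside 0.93 and 0.37 for the 18 sterol enzymes.

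The interaction of cell type and assay asks whether total and nascent RNA changed by different amounts, and here the members lay mostly on one side. Of the 33, 29 had a total change below their nascent change and 4 above, with a median stability change of -0.45 beside 0.11 over all genes tested. At the adjusted p alone 8 fell (24.2%, against 1.88% of all genes tested) and 1 rose (3.03%, against 2.72%). Past the fold threshold as well, 2 were called lower (6.06%, against 0.305%) and 0 higher (0%, against 1.24%); limma-voom gave 1 higher at an unadjusted p under 0.05, and edgeR and DESeq2 also called 0. Without EpiLC total library 2, 5 fell at the adjusted p alone, and the number called lower ranged from 0 (without ESC 4sU library 1 or EpiLC total library 2) over 1 (without ESC total library 3, EpiLC 4sU library 1 or 2, or EpiLC total library 3) and 4 (without EpiLC total library 1) to 6 (without ESC 4sU library 2 or EpiLC 4sU library 3). All 18 sterol enzymes were below 0, from -0.04 for Dhcr7 to -1.30 for Tm7sf2.

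**Figure D3:**
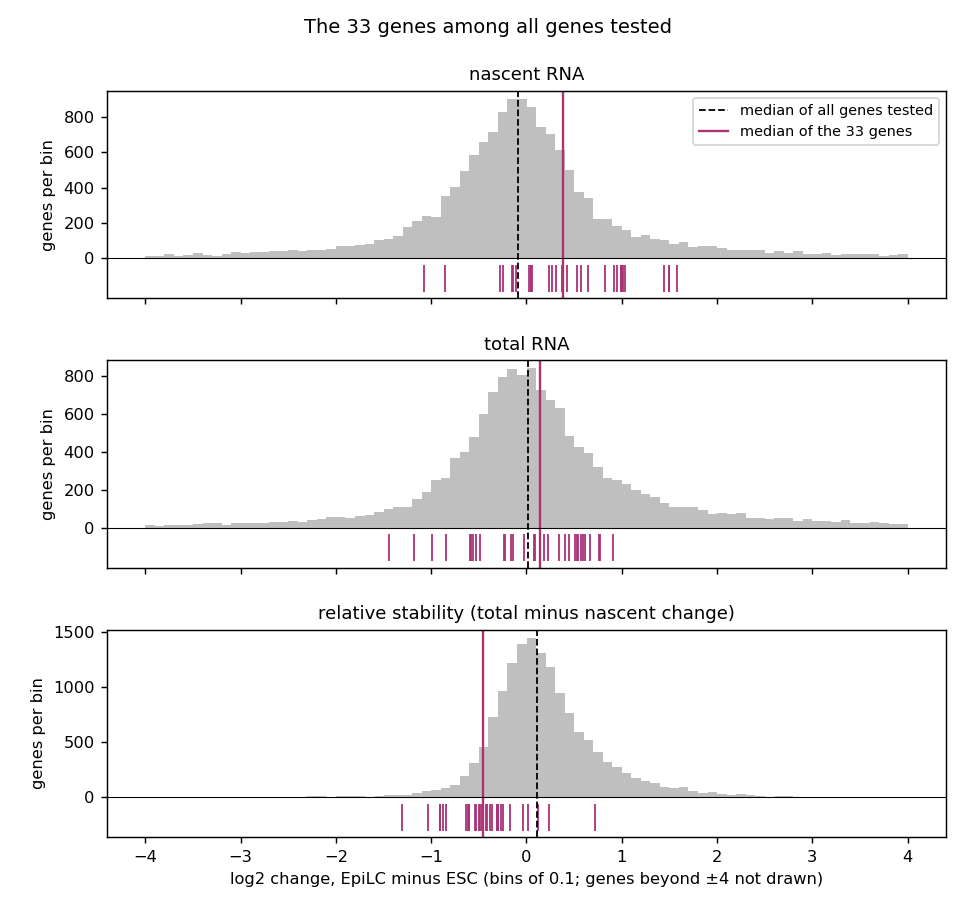
The histograms show the log2 change (horizontal axis, EpiLC minus ESC) of the 14731 genes tested as genes per bin, and the ticks under each show the 33 members. The members' median (purple line) lies to the right of that of all genes (dashed line) for nascent RNA, 0.38 against -0.09, near it for total RNA, 0.14 against 0.02, and to its left for relative stability, -0.45 against 0.11.

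Scd2 had the smallest adjusted p of this comparison. Its relative stability was 0.43, 0.22 and 0.57 in the ESC pairs of same-numbered libraries and -0.65, -0.43 and -0.42 in the EpiLC pairs. The cell types were apart. The change was -0.91 ± 0.13 (limma-voom adjusted p = 0.00264). Acly went from 2.48, 2.38 and 2.20 to 1.70, 1.72 and 1.83, at percentiles 97.3 and 91.7 of all genes, with a change of -0.60 ± 0.10 (limma-voom adjusted p = 0.00584). Scd1 went from 1.31, 1.03 and 1.75 to 0.29, 0.36 and 0.29. Its change of -1.04 ± 0.22 (limma-voom adjusted p = 0.0174) was -0.98 without ESC 4sU library 1, -0.84 without ESC total library 3, and missed the test without EpiLC total library 2 (-1.01, limma-voom adjusted p = 0.0508).

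Among the sterol enzymes, 4 fell in relative stability. Sc5d went from -0.07, -0.49 and -0.18 to -1.16, -1.22 and -1.10 (change -0.91 ± 0.16, limma-voom adjusted p = 0.00917). Cyp51 went from 0.46, 0.15 and 0.33 to -0.57, -0.68 and -0.51 (change -0.90 ± 0.16, limma-voom adjusted p = 0.00917). Hmgcs1 went from 0.93, 0.55 and 0.59 to -0.12, -0.36 and -0.09 (change -0.88 ± 0.18, limma-voom adjusted p = 0.015). In these 3 genes total RNA rose while nascent RNA rose more, and each exceeded a change of 1 in size without ESC 4sU library 2 (-1.12, -1.04 and -1.01) and without EpiLC 4sU library 3 (-1.02 in each). Scd2 did so in the same fits (-1.02 and -1.03), and Cyp51 and Hmgcs1 without EpiLC total library 1 (-1.0004 and -1.02). The adjusted p of Scd2, Acly, Sc5d, Cyp51 and Hmgcs1 stayed under 0.05 in all 22 alternative fits.

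Msmo1, Hsd17b7 and Lss (-0.61, -0.54 and -0.53) missed the test in relative stability, which Msmo1 passed without ESC 4sU library 3 (-0.78), ESC total library 1 (-0.76) or ESC total library 3 (-0.50), Hsd17b7 without ESC total library 1 (-0.75) and Lss without ESC total library 3 (-0.59). Msmo1 and Lss also passed with the replicate number as a block term (-0.61 and -0.53, limma-voom adjusted p = 0.0485 and 0.0334), with a block per same-numbered pair (-0.61 and -0.53, limma-voom adjusted p = 0.0228 and 0.0384), with quality weights (-0.54 and -0.62, limma-voom adjusted p = 0.0131 and 0.0144) and without both ESC libraries numbered 3 (-0.57 and -0.61, limma-voom adjusted p = 0.00597 and 0.0128). Msmo1 passed with median-of-ratios scaling, TMM within each assay and no filter as well (limma-voom adjusted p = 0.0365, 0.0458 and 0.0388). By DESeq2, Msmo1, Hsd17b7 and Lss all passed (-0.70, -0.65 and -0.61, adjusted p = 0.00707, 0.0262 and 0.0173). Tm7sf2 had the largest fall in relative stability, from 2.42, 1.69 and 1.89 to 0.76, 0.49 and 0.92 (change -1.30 ± 0.29, limma-voom adjusted p = 0.0223). It missed the test without ESC 4sU library 1 (-1.04, limma-voom adjusted p = 0.0511), EpiLC 4sU library 1 or 2 (-1.30 and -1.22, up to 0.0844), or EpiLC total library 2 or 3 (-1.27 and -1.22, up to 0.0568). Insig1 went from -0.22, -0.48 and -0.27 to -0.86, -0.88 and -0.71 (change -0.49 ± 0.12, limma-voom adjusted p = 0.035) and missed the test without ESC 4sU library 1 (-0.44), ESC total library 2 (-0.52), EpiLC 4sU library 1 or 2 (-0.50 and -0.52) or EpiLC total library 2 or 3 (-0.44 and -0.50), with limma-voom adjusted p of 0.0547 to 0.0961. The 4 other regulators did not pass, Srebf1 with -0.30 (past the test at -0.35 with quality weights and at -0.40 without both ESC libraries numbered 3), Srebf2 with -0.27, Scap with -0.25 and Insig2 with 0.12, the last changing sign without EpiLC 4sU library 3 (-0.07).

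Npc1 was the single member that rose, from -0.13, -0.21 and 0.04 to 0.65, 0.69 and 0.49 (change 0.72 ± 0.16, limma-voom adjusted p = 0.0226). The cell types were apart. The rise missed the test in 7 of the 12 fits without 1 library: without ESC 4sU library 2 (0.58), ESC total library 1 (0.69), any EpiLC 4sU library (0.68, 0.67 and 0.66) or EpiLC total library 1 or 2 (0.66 and 0.73), with limma-voom adjusted p of 0.0531 to 0.0822. Without an expression filter it was 0.60 (limma-voom adjusted p = 0.145).

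Within a cell type the members ranged widely. The median relative stability of the 33 was 0.93, 0.98 and 0.80 in the 3 ESC pairs and 0.55, 0.49 and 0.58 in the 3 EpiLC pairs, above the medians of all genes (0.04 ± 0.02 and 0.14 ± 0.01, SD, n = 3). Idi1 was lowest in both cell types (-1.39 ± 0.18 and -1.79 ± 0.25), at percentiles 21.8 and 15.2 of all genes, and Hsd17b7 followed (-0.77 ± 0.31 and -1.34 ± 0.14). Pmvk, Acly, Acat2 and Acss2 were highest in ESCs, from 2.33 to 2.38, and overlapped each other. In EpiLCs Acss2 was highest (2.33 ± 0.70), with a spread that reached its neighbours Fdps (1.76 ± 0.28) and Acly (1.75 ± 0.07).

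**Figure D4:**
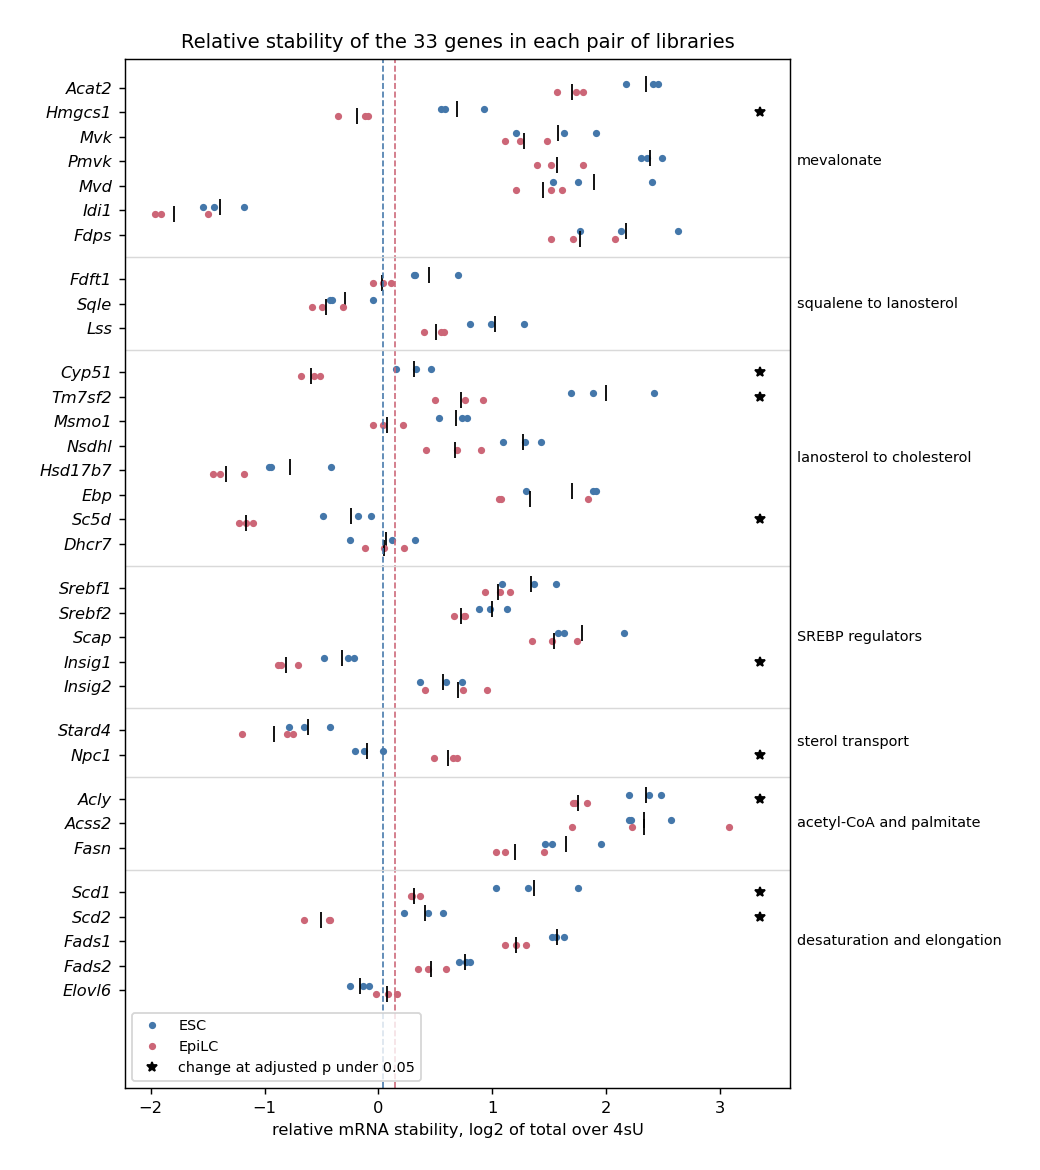
Relative stability (log2 of total over 4sU, horizontal axis) is plotted for each of the 33 genes, with a dot for each pair of same-numbered libraries (blue ESC, red EpiLC), a black mark for their mean, dashed lines for the median of all genes in each cell type and a star where the change passed an adjusted p of 0.05. The red dots lie to the left of the blue ones for the 8 starred genes that fell, and to the right for Npc1, the 1 that rose.

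Other genes near the pathway were read from lists of names. Among all genes tested, at the adjusted p alone, 31.4% rose and 32.1% fell in total RNA, 23.7% rose and 28.8% fell in nascent RNA, and 1.88% fell in relative stability. Of 12 further isoprenoid and sterol genes 10 were tested. Of these, 2 rose and 2 fell in total RNA, and 2 rose and 3 fell in nascent RNA (20% or 30% of those tested). In relative stability 2 fell (20%). Aacs, which activates acetoacetate for lipid synthesis, was among the latter with -1.01 ± 0.23 (limma-voom adjusted p = 0.0275), from a nascent change of 0.79 and a total change of -0.21, and it missed the test in 6 of the 12 fits without 1 library: without ESC 4sU library 1 or 2 (-0.95 in both), EpiLC 4sU library 1 (-0.99) or 2 (-1.07), or EpiLC total library 2 (-0.87) or 3 (-1.03). Of 12 genes for SREBP processing, turnover and cofactors, 3 rose and 3 fell in total RNA, and 3 rose and 4 fell in nascent RNA (25% each, and 33.3% for the last). The protease genes Mbtps1 and Mbtps2 had total changes of 0.25 ± 0.08 and -0.10 ± 0.12 (limma-voom adjusted p = 0.0183 and 0.513), the first not past the test without ESC total library 1 (0.20) or 2 (0.18) or EpiLC total library 2 (0.25) or 3 (0.24).

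Of 11 genes of sterol export, esterification and their LXR regulators, 10 were tested, with 2 called higher and 4 called lower in total RNA, and 2 and 3 in nascent RNA. That is 20% and 40% in total RNA, against 16.3% and 11.2% of all genes tested, and 20% and 30% in nascent RNA, against 11.9% and 13.5%. Soat1, which esterifies cholesterol for storage, was at 38.4 ± 14.1 CPM in ESC and 333 ± 14.7 CPM in EpiLC total RNA (SD, n = 3; log2 3.15 ± 0.20, limma-voom adjusted p = 7.21e-09). Abca1, the cholesterol efflux pump, was at 20.3 ± 10.7 and 2.67 ± 0.279 CPM (log2 -2.70 ± 0.43, limma-voom adjusted p = 7.59e-05).

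Of 28 further fatty acid synthesis and activation genes 24 were tested. In total RNA 5 were called higher and 3 lower (20.8% and 12.5%, against 16.3% and 11.2% of all genes tested). In nascent RNA 5 were called higher and 4 lower (20.8% and 16.7%, against 11.9% and 13.5%). The desaturase relative Fads3 (log2 3.36 ± 0.43 in total RNA, limma-voom adjusted p = 9.11e-06, from a mean of 0.368 CPM in ESCs) and the elongase gene Elovl4 (2.12 ± 0.14, limma-voom adjusted p = 1.28e-08) had the largest changes. Of 18 genes of fatty acid oxidation, the opposing pathway, 16 were tested; 11 fell and 1 rose in total RNA, and 9 fell and 1 rose in nascent RNA. The shares that fell were 68.8% in total RNA, against 32.1% of all genes tested, and 56.2% in nascent RNA, against 28.8%. Cpt1a, the carnitine transferase that admits fatty acids to mitochondria, was at 172 ± 27.3 CPM in ESC and 23.6 ± 2.96 CPM in EpiLC total RNA (SD, n = 3; log2 -2.86 ± 0.16, limma-voom adjusted p = 1.71e-09), and the carnitine carrier gene Slc25a20 changed by -2.78 ± 0.14 (limma-voom adjusted p = 4.02e-10). The median total change of the oxidation genes was -0.50.

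Without the ESC libraries numbered 3, nascent RNA of 10 members was called higher, the same 6 with Fasn, Fdps, Idi1 and Pmvk, and Ebp was again the 1 called lower. In total RNA Hsd17b7 was called higher (1.00), Ebp was the 1 called lower, and Scd1 stood at -0.997. In relative stability 16 members fell, the 8 above among them, 1 rose, and Tm7sf2 alone was called, while Scd1 was at -0.84. Calls in relative stability grew over all genes as well, to 99 lower and 680 higher of 14309 tested, from 45 and 182 of 14731. Shares of all genes at the adjusted p alone were not taken in this fit. The median stability change was then -0.48, with 30 members below 0 and 3 above.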

How the data were processed

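The authors sequenced 4sU-selected and total RNA single-end, trimmed reads with cutadapt 1.14, aligned them to mm10 with STAR 2.5.3a and counted unique reads per gene with featureCounts 1.5.3 on the GENCODE M14 annotation without rRNA genes, using strand. The deposited values are raw counts per gene and library. The 92 spike-in rows held 0 reads and were left out, and 99.6% of gene IDs matched a symbol.

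Genes that reached 3 CPM in 3 or more libraries were kept, and their counts were scaled by TMM and fitted with limma 3.58.1 (voom) in R 4.3.3, with 4 groups of 3 libraries and contrasts for total RNA, nascent RNA and their difference. Alternatives included edgeR 4.0.16, DESeq2 1.42.0, other scalings, no filter, a replicate block and each library left out. The fits were tested on simulated data, with large changes put into EpiLC total RNA alone. Recovery of nascent changes, or of changes as small as most of those given here, was not tried. Genes were described with per-library values if they were called, regulated SREBP or had the highest level per kb of exon in their role, and in other lists if they were called with the largest change (at most 2 a list) or encoded an SREBP protease. One result that this rule selects is not reported here. The 33 genes, the gene lists and the tests were chosen with earlier results of these data known. Counting unique reads lowers the counts of genes with near-identical copies. No interval covers more than the spread between libraries.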

Additional observations from a re-analysis of the deposited data

Results flagged for a closer look

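Total and nascent RNA changed by different amounts (the interaction of cell type and assay in limma-voom at an adjusted p under 0.05) in 9 of the 33 genes. Relative stability fell in 8 (24.2%, against 1.88% of all genes tested) and rose in 1 (3.03%, against 2.72%). The total change minus the nascent change was -1.30 for Tm7sf2, -1.04 for Scd1, -0.91 for Sc5d, -0.91 for Scd2, -0.90 for Cyp51, -0.88 for Hmgcs1, -0.60 for Acly and -0.49 for Insig1 on the log2 scale. It was 0.72 for Npc1, the 1 gene of these whose total change lay above its nascent change. Of the 12 fits without 1 library, the test was missed in 7 for Npc1, 6 for Insig1, 5 for Tm7sf2 and 1 for Scd1.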

How the results depend on the processing

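The median stability change of the members was below 0 in every fit run. Members called higher in nascent RNA went from 6 to 10 with median-of-ratios scaling, TMM within each assay, only the 6 4sU libraries or both ESC libraries numbered 3 left out, and from 4 to 11 without 1 library. With no filter or with DESeq2 they were 9. Those called lower there went from 1 to 0 with edgeR or DESeq2, and those lower at the adjusted p alone from 1 to 2 with edgeR or quality weights (0 to 1 without 1 library for both). In total RNA, members called went from 0 to 1 higher and from 2 to 1 lower without both ESC libraries numbered 3 (0 to 1 and 1 to 3 without 1 library). Those called lower there were 3 with median-of-ratios scaling, no filter, quality weights or DESeq2, with Tm7sf2 added. In relative stability, those called lower went from 2 to 1 with library totals, quality weights or both ESC libraries numbered 3 left out and to 5 without a filter (0 to 6 without 1 library). Those lower at the adjusted p alone went from 8 to 15 with DESeq2 and 16 with quality weights or both ESC libraries numbered 3 left out (5 to 12 without 1 library), and the 1 higher to 0 without a filter (0 to 1 without 1 library). Over all genes, those called lower in relative stability also went up, from 45 to 83, 108 and 99 in these 3 fits. Those called higher went from 182 to 179, 738 and 680. The members' median relative stability went from 0.90 in ESCs to 0.73 with TMM within each assay and 0.67 with library totals, and from 0.54 in EpiLCs to 0.32 and 0.38.

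Changes near 0 changed sign. Srebf2 in total RNA was 0.0572 with library totals and 0.011 without both ESC libraries numbered 3 (-0.0881 to 0.0225 without 1 library). Npc1 in nascent RNA was -0.0413 with quality weights and -0.1027 without both ESC libraries numbered 3 (-0.0167 to 0.1689 without 1 library). Without 1 library, nascent RNA ranged from -0.0132 to 0.1688 for Srebf1 and from -0.0296 to 0.1286 for Acly, and relative stability of Insig2 from -0.0708 to 0.1758. Without a filter the median total change of all genes moved from 0.02 to 0.16, above the 0.09 of the members. The cause of these differences was not tested.

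Same-numbered libraries deviated together in ESCs (correlations of 0.16, 0.30 and 0.41 between 4sU and total) but hardly in EpiLCs (0.02 to 0.07). ESC 4sU library 2 and ESC total library 1, of unlike numbers, reached 0.29. The methods of the study split each extract, but the labels do not say that a shared number marks 1 extract. The main model therefore left the number out, while the relative stability per pair and the block fits used it. With the replicate number as a block term, 11 members fell in relative stability and 21 rose in nascent RNA at the adjusted p alone. With the block per same-numbered pair the numbers were 12 and 17, and the members called stayed at 6 higher in nascent RNA and 2 lower in relative stability with either block. Over all genes, 45 were called lower and 182 higher in relative stability in the main fit. The numbers were 73 and 281 with the block term, and 80 and 405 with the block per pair. Depth limits the 4sU values most, where Acss2 had as few as 6 reads.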
